A study of Mus musculus with 7 samples.

Results

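The genes of the proteasome, the protease that degrades ubiquitin-tagged proteins, were described in mouse muscle cells before and after differentiation. They were chosen by symbol, as every entry of the expression table named Psma to Psmg followed by a number, whatever its values. The rule found 50 entries of 37975 in the table, with 48 symbols, since Psmb9 and Psmd14 are each listed under 2 gene identifiers. Of these, 48 entries (46 symbols) were among the 15966 that the authors tested. The remaining entries, the testis subunit Psma8 and the thymus subunit Psmb11, were listed at 0 FPKM in both conditions and were not tested.

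The cells compared were 2-day myotubes carrying an empty vector, kept for 48 hours in medium with 5% horse serum, and growing myoblasts carrying an empty vector, from which such myotubes form. Both carried the empty retroviral construct, and the myoblasts came from satellite cells that were isolated by sorting, from mice 4 to 6 weeks old. Binding of MyoD, the transcription factor that drives muscle differentiation, came from chromatin immunoprecipitation (ChIP) of 2-day myotubes, and the label describes that sample as taken from an earlier one. Each of the 3 samples used was alone in its group, and the 4 histone ChIP samples of the series were not analysed here. Most muscle markers separated the conditions: of 7, the authors' test marked 4 higher in 2-day myotubes and 2 lower. The muscle creatine kinase gene Ckm was at 1453 FPKM in 2-day myotubes and 49.4 in growing myoblasts, so it was not absent from the latter. The satellite cell gene Pax7 was at 6.71 FPKM in 2-day myotubes and 48.5 in growing myoblasts.

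The proteasome has a barrel-shaped core, built from rings of alpha subunits (Psma genes) around rings of beta subunits (Psmb genes) that hold the protease sites inside. A cap on the core recognises ubiquitin chains (Psmd genes) and unfolds substrates with a ring of ATPases (Psmc genes). Chaperones assemble both, and other activators (Psme genes) can replace the cap. In immune responses and under interferon, Psmb8, Psmb9 and Psmb10 replace the constitutive protease subunits Psmb5, Psmb6 and Psmb7, which changes the peptides made for display on MHC class I. In skeletal muscle the proteasome is known for degrading myofibrillar proteins during atrophy.

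Values are FPKM (fragments scaled by transcript length and by library size) as deposited, 1 per gene and condition, so no difference had a replicate check here. A gene is described as called, and as having risen or fallen, where the authors' Cuffdiff test marked it significant, at a q of at most 0.05 over all tested genes. The standard error (SE) of a log2 fold change is the one implied by the authors' test statistic. In the authors' deposited table, of the 48 tested entries 1 was called higher in 2-day myotubes, where 6.52% of all tested genes were, and 5 were called lower, where 17.3% of all tested genes were. In either direction that is 6 calls, beside 23.9% of all tested genes. Among tested genes with a mean of at least 10 FPKM, a level that 47 of the 48 entries reached, the shares were 7.01% higher, 16.8% lower and 23.8% in either direction. With all log2 fold changes centred on the median of all tested genes, 1 entry was called higher and 3 lower, where 9.94% of all tested genes were higher and 10.2% lower. The calls by the authors' deposited table were Psmc3 (higher) and Psmb8, both entries of Psmb9, Psme1 and Psmd5 (lower).

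Most proteasome genes were abundant in both conditions. The median over the tested entries was 134 FPKM in 2-day myotubes and 132 in growing myoblasts, where all tested genes had medians of 12.7 FPKM in 2-day myotubes and 17.9 in growing myoblasts. All entries together summed to 9217 FPKM in 2-day myotubes, which is 0.564% of the sum over tested genes, and to 8405 in growing myoblasts, 0.514%. The median log2 fold change of all tested genes above 0 in both conditions was -0.41, so a gene at 0 stood above most others. Of the proteasome entries 25 lay above 0 and 23 below, and 38 of 48 lay above the median of all genes, while 33.4% of all such genes lay above 0. For 11 entries the 95% interval of the log2 fold change lay within 1 of 0, that is, inside a change of 1 log2 unit either way, which held for 6.62% of all tested genes above 0. That interval depends on the SE, whose median was 0.49 for the proteasome entries and 0.65 for all such genes. A share among genes of like abundance was not computed. The immune entries had the lowest class median, 4.22 FPKM in 2-day myotubes and 18.8 in growing myoblasts, but their levels overlapped those of the assembly chaperones in both conditions.

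**Figure D1:**
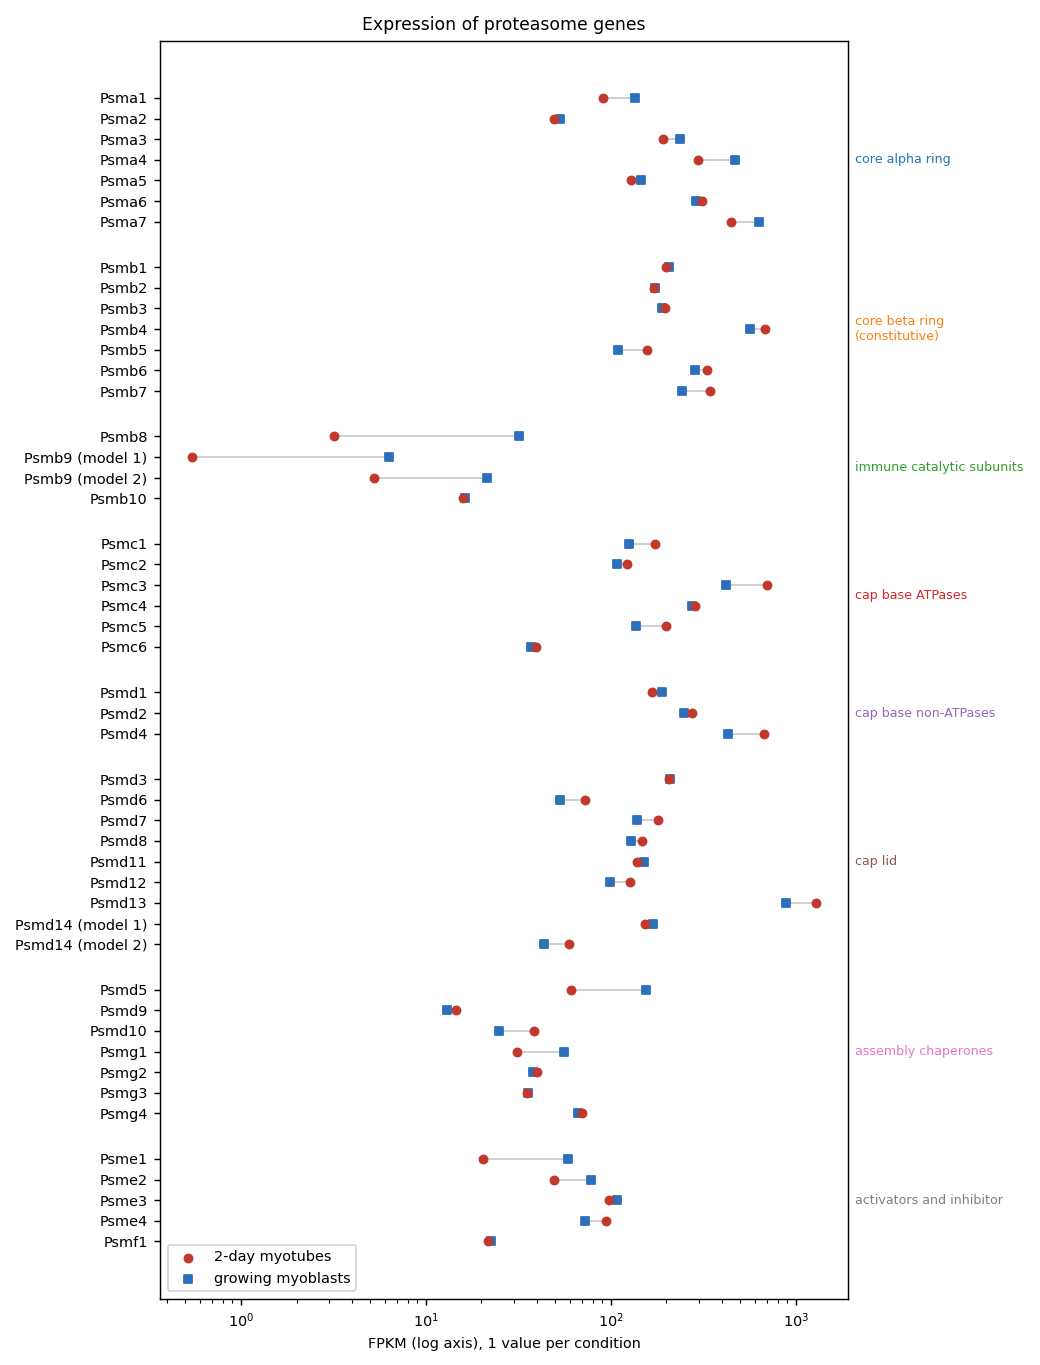
FPKM (log axis) of the 48 tested proteasome entries in 2-day myotubes (circles) and growing myoblasts (squares), 1 value per condition, ordered by role. Psmd13 sits highest at 1295 FPKM in 2-day myotubes and 891 in growing myoblasts, and Psmb8 and Psmb9 have the widest gaps between the conditions; model 1 and model 2 are the entries of a symbol listed under 2 identifiers, and Psma8 and Psmb11, listed at 0, are not drawn.

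The 3 interferon-inducible protease subunits split. Psmb8 fell to 3.20 FPKM in 2-day myotubes, against 31.8 in growing myoblasts (log2 fold change -3.31 with an SE of 0.60, and a q of 8.77e-07 in the authors' deposited table). Both Psmb9 entries fell. The more abundant one was at 5.23 FPKM in 2-day myotubes and 21.3 in growing myoblasts (authors' deposited table, log2 fold change -2.03 with an SE of 0.58 and a q of 0.0038). The other was at 0.541 FPKM in 2-day myotubes and 6.35 in growing myoblasts (authors' deposited table, log2 fold change -3.55 with an SE of 1.37 and a q of 0.0419). Psmb10 was at 16.0 FPKM in 2-day myotubes and 16.2 in growing myoblasts and was not called (log2 fold change -0.02 with an SE of 0.70, and a q of 0.988 in the authors' deposited table). With the Psmb9 entries summed, Psmb10 had the highest level of the 3 in 2-day myotubes and the lowest in growing myoblasts.

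The difference between the log2 fold changes of Psmb8 and Psmb10 was -3.29 (SE 0.92, 95% interval -5.10 to -1.48), taking the implied errors as independent. For the more abundant Psmb9 entry and Psmb10 it was -2.004 (SE 0.91, 95% interval -3.79 to -0.22). Neither interval holds 0. Psmb10 itself is loosely bounded, with a 95% interval of -1.40 to 1.36. In the table Psmb8 lies at chromosome 17 from 34334665 to 34353266 (mm9), a merged locus that also holds the transporter gene Tap2. The Psmb9 entries lie at 34318931 to 34334170 on the same chromosome, with Tap1. Because the Psmb9 entries occupy one locus, how reads were divided between them cannot be told from the table, and Psmb10 shares its locus with 3 other tested genes.

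The constitutive counterparts were not called. Psmb5, the chymotrypsin-like subunit, was at 158 FPKM in 2-day myotubes and 109.6 in growing myoblasts (log2 fold change 0.52 with an SE of 0.37, and a q of 0.337 in the authors' deposited table). Psmb6, the caspase-like subunit, was at 332 FPKM in 2-day myotubes and 286 in growing myoblasts, and Psmb7, the trypsin-like subunit, at 346 in 2-day myotubes and 243 in growing myoblasts, also not called in the authors' deposited table. The log2 fold change of Psmb8 minus that of Psmb5 was -3.84 (SE 0.70, 95% interval -5.21 to -2.46). For the more abundant Psmb9 entry minus Psmb6 it was -2.24 (SE 0.83, 95% interval -3.87 to -0.61). For Psmb10 minus Psmb7 it was -0.53 (SE 0.82, 95% interval -2.15 to 1.08), an interval that holds 0. Entries named as pseudogenes of these 3 genes are listed separately (Psmb5-ps, Psmb6-ps and Psmb7-ps2, at 11.7, 15.5 and 17.0 FPKM in 2-day myotubes and 6.86, 10.03 and 15.9 in growing myoblasts), and whether reads were split between gene and pseudogene was not tested.

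As a share of the FPKM of its pair, Psmb8 made up 1.99% in 2-day myotubes and 22.5% in growing myoblasts. Psmb9, with its entries summed, made up 1.71% of its pair with Psmb6 in 2-day myotubes and 8.83% in growing myoblasts. Psmb10 made up 4.41% of its pair with Psmb7 in 2-day myotubes and 6.26% in growing myoblasts. Over the 3 pairs the immune share was 2.90% in 2-day myotubes and 10.6% in growing myoblasts. These are shares of RNA, with 1 value per condition and no error, and they do not measure protein or assembled proteasomes. In bulk RNA, fewer cells that express a gene and less RNA of it per cell cannot be told apart.

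**Figure D2:**
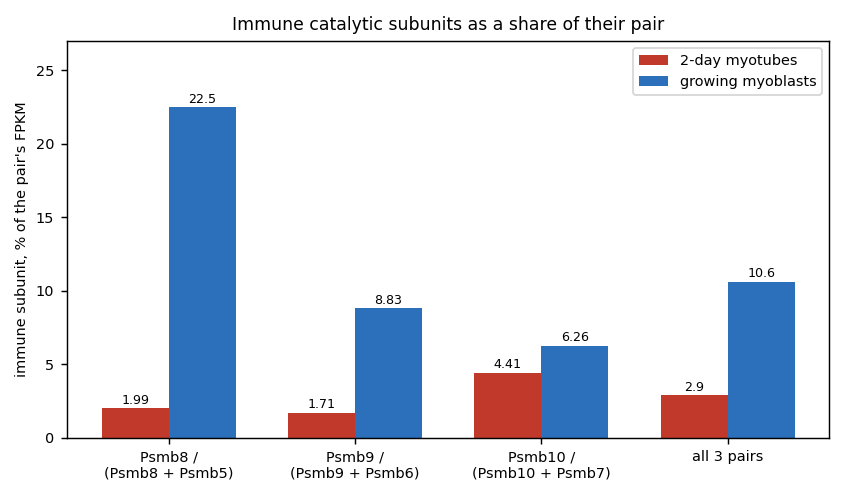
Immune catalytic subunit as a percent of the summed FPKM of the immune and constitutive subunit of each pair, in 2-day myotubes (left bars) and growing myoblasts (right bars), 1 value each with no error. The Psmb8 pair shows the widest gap, 1.99% in 2-day myotubes and 22.5% in growing myoblasts.

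Immune cells, which carry these subunits, were looked for by 9 markers found in the table, of which 5 were at 0 in 2-day myotubes and 6 in growing myoblasts. Their FPKM summed to 27.2 in 2-day myotubes and 32.6 in growing myoblasts. Lyz2, Emr1 and Cd3e were listed at 0 in both conditions, and Ptprc, the pan-leukocyte marker, at 0.0224 in 2-day myotubes and 0 in growing myoblasts. Itgam gave most of the sum, at 24.3 FPKM in 2-day myotubes and 20.6 in growing myoblasts. The macrophage marker Cd68 fell together with Psmb8, to 2.80 FPKM in 2-day myotubes against 11.04 in growing myoblasts in the authors' deposited table, and the monocyte marker Cd14 fell too, listed at 0 in 2-day myotubes against 1.001 FPKM in growing myoblasts (q of 0.0277 in the authors' deposited table). The part of these markers in the result was not tested. The 3 endothelial markers summed to 0.289 FPKM in 2-day myotubes and 4.69 in growing myoblasts, and among them Pecam1 fell to 0.213 FPKM in 2-day myotubes, against 4.62 in growing myoblasts. The 3 fibroblast markers summed to 0.720 FPKM in 2-day myotubes and 4.27 in growing myoblasts, and among them Thy1 fell to 0.516 FPKM in 2-day myotubes, against 3.70 in growing myoblasts (authors' deposited table); their part in the result was likewise not tested.

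The promoters of the immune subunits are shown because Psmb8 and Psmb9 were called and Psmb10 was not. Each line gives the 250 bases before the RefSeq start (build GRCm38.p6, 5′ to 3′ on the gene's strand), with E-boxes, the CANNTG letters that MyoD and other basic helix-loop-helix factors can bind, in capitals.
Psmb8, chr17:34197945-34198194 (+): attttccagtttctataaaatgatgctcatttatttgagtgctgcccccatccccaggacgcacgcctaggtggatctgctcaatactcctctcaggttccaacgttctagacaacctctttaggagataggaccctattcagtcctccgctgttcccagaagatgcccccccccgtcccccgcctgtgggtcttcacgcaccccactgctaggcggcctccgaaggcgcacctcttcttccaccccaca
Psmb9, chr17:34187331-34187580 (-): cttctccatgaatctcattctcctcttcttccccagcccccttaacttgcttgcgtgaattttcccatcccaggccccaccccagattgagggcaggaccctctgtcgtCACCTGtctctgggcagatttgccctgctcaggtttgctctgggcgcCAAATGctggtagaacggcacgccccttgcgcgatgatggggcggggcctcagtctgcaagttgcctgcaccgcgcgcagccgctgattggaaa
Psmb10, chr8:105938393-105938642 (-): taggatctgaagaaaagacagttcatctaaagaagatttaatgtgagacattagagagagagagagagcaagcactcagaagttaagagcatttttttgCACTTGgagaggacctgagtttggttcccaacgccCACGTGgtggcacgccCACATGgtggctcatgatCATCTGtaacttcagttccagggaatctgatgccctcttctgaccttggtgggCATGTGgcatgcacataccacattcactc
The Psmb8 window held 0 matches, that of Psmb9 held 2 and that of Psmb10 held 5. Over all 32851 windows of this length, 66.2% held at least 1. The shares that held 2 or 5 are not given here, and whether these counts bear on the calls was not tested. The interferon-response letters (TTTC, any 2 bases, TTTC), searched on both strands, were in none of these 3 windows and in 2.98% of all windows, and no match says only that these letters are not there.

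Of the genes that act with the immune subunits, 5 of 9 tested genes of antigen presentation and interferon response fell and 0 rose by the calls of the authors' deposited table, where 17.3% of all tested genes fell. Tap1, part of the transporter that moves proteasome peptides into the endoplasmic reticulum, fell to 5.84 FPKM in 2-day myotubes, against 67.9 in growing myoblasts (log2 fold change -3.54 with an SE of 0.41, and a q listed as 0 in the authors' deposited table). In the table Tap1 shares its locus with Psmb9, and Tap2 shares its own with Psmb8. Tap2, the partner of Tap1 in the transporter, fell to 45.0 FPKM in 2-day myotubes, against 213 in growing myoblasts (authors' deposited table, log2 fold change -2.25 with an SE of 0.41). Irf1, an interferon-regulated transcription factor, fell to 7.62 FPKM in 2-day myotubes, against 24.95 in growing myoblasts (authors' deposited table, log2 fold change -1.71 with an SE of 0.39). Erap1, which trims peptides for display, fell to 0.756 FPKM in 2-day myotubes, against 3.40 in growing myoblasts, and Tapbp, the loading chaperone tapasin, was also called lower in the authors' deposited table. B2m, at 76.6 FPKM in 2-day myotubes and 183 in growing myoblasts (log2 fold change -1.26, SE 0.65), was not called, and neither were H2-K1 and H2-D1.

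The activator genes also split. Psme1 (chromosome 14 from 56196959 to 56204139, mm9), which encodes a subunit of the interferon-inducible activator that opens the core, fell to 20.3 FPKM in 2-day myotubes, against 58.8 in growing myoblasts (log2 fold change -1.53 with an SE of 0.39, and a q of 0.000775 in the authors' deposited table). Psme2, its partner subunit, was at 49.2 FPKM in 2-day myotubes and 78.1 in growing myoblasts and was not called (log2 fold change -0.67 with an SE of 0.55, and a q of 0.434 in the authors' deposited table). The difference between their log2 fold changes was -0.87 (SE 0.67, 95% interval -2.19 to 0.46), so the pair were not shown to differ. The pseudogene entry Psme2b-ps is listed at 19.4 FPKM in 2-day myotubes and 28.1 in growing myoblasts. Psme3, the nuclear activator, was at 98.0 FPKM in 2-day myotubes and 107.8 in growing myoblasts, and Psme4, a large activator of another family, at 94.5 in 2-day myotubes and 72.8 in growing myoblasts. Psmf1, which encodes an inhibitor of the core, was at 21.8 FPKM in 2-day myotubes and 22.6 in growing myoblasts. None of the 3 was called in the authors' deposited table, with q of 0.838, 0.476 and 0.956.

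The constitutive core had no called member. All 14 entries missed the threshold in the authors' deposited table, with log2 fold changes from -0.66 (Psma4) to 0.52 (Psmb5). In the alpha ring, whose subunits form the gate of the barrel, 6 of 7 values were below 0 and the median of log2((FPKM 2-day + 1)/(FPKM growth + 1)) was -0.31. Relative to the median of all genes on that scale, -0.37, the alpha median was 0.06, so its sign turns with the zero point. In the beta ring 5 of 7 values were above 0, the median was 0.22 and, relative to all genes, 0.59. Psma7 was at 448 FPKM in 2-day myotubes and 634 in growing myoblasts (log2 fold change -0.50, SE 0.37), and Psma4 at 297 in 2-day myotubes and 471 in growing myoblasts (log2 fold change -0.66, SE 0.53). Psma1 was at 90.7 FPKM in 2-day myotubes and 135 in growing myoblasts, with the lowest q of the ring, 0.192, in the authors' deposited table. Psmb4, a structural beta subunit, was at 683 FPKM in 2-day myotubes and 569 in growing myoblasts (log2 fold change 0.26, SE 0.41). Psmb1, Psmb2 and Psmb3 were closer to equal, at 199.8, 171 and 195 FPKM in 2-day myotubes and 208, 174 and 190 in growing myoblasts. The remaining alpha subunits had log2 fold changes from -0.31 to 0.10. Psma3 was at 191 FPKM in 2-day myotubes and 236 in growing myoblasts, Psma5 at 128 in 2-day myotubes and 145 in growing myoblasts, and Psma6 at 310.1 in 2-day myotubes and 289.5 in growing myoblasts.

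The cap contributed the 1 higher call. Psmc3, an ATPase of the ring that unfolds substrates, rose to 701 FPKM in 2-day myotubes, against 419 in growing myoblasts (log2 fold change 0.74 with an SE of 0.30, and a q of 0.0497 in the authors' deposited table). Its q lay just under the threshold, and at a q of at most 0.01 it was not called. It lies on chromosome 2 from 90894165 to 90910574 (mm9) in a locus shared with Slc39a13, which was at 59.8 FPKM in 2-day myotubes and 81.6 in growing myoblasts. All 6 ATPase values were above 0, with a median of 0.32 on the log2(FPKM + 1) scale and 0.69 relative to all genes. Psmc5 was at 199 FPKM in 2-day myotubes and 137 in growing myoblasts (log2 fold change 0.54, SE 0.51), and Psmc1 at 174 in 2-day myotubes and 125 in growing myoblasts (log2 fold change 0.48, SE 0.67). Psmc4 was at 285 FPKM in 2-day myotubes and 275 in growing myoblasts with an interval of -0.54 to 0.64, and Psmc6, the lowest, at 39.6 in 2-day myotubes and 37.1 in growing myoblasts. Psmc2 was at 122 FPKM in 2-day myotubes and 108.5 in growing myoblasts.

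Among the remaining subunits of the cap base, Psmd4, a ubiquitin receptor, was at 672 FPKM in 2-day myotubes and 433 in growing myoblasts (log2 fold change 0.63 with an SE of 0.42, and a q of 0.303 in the authors' deposited table). The scaffold subunits Psmd1, at 168 FPKM in 2-day myotubes and 189 in growing myoblasts, and Psmd2, at 274 in 2-day myotubes and 250 in growing myoblasts, were not called either. The lid, which holds the deubiquitinase Psmd14, had 6 of 9 entries above 0 and a median of 0.36, or 0.73 relative to all genes. Psmd13, the most abundant proteasome gene, was at 1295 FPKM in 2-day myotubes and 891 in growing myoblasts (log2 fold change 0.54, SE 0.63). It shares its locus with Ric8 and Sirt3, which the authors' deposited table called higher. Psmd11, a lid scaffold, was the most tightly measured, at 139.5 FPKM in 2-day myotubes and 152 in growing myoblasts (log2 fold change -0.12, SE 0.22, 95% interval -0.55 to 0.31). The main Psmd14 entry was at 154 FPKM in 2-day myotubes and 169 in growing myoblasts, and the second at 59.2 in 2-day myotubes and 43.5 in growing myoblasts. Psmd6 was at 72.9 FPKM in 2-day myotubes and 53.4 in growing myoblasts, and Psmd7, which pairs with the deubiquitinase Psmd14, at 179.7 in 2-day myotubes and 139.5 in growing myoblasts. Psmd3, Psmd8 and Psmd12 were at 207, 148 and 127 FPKM in 2-day myotubes and 209, 128 and 98.6 in growing myoblasts. These lid entries were not called in the authors' deposited table, with q from 0.610 to 0.989.

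Among assembly factors, Psmd5, a chaperone for assembly of the cap's ATPase ring, fell to 60.7 FPKM in 2-day myotubes, against 155 in growing myoblasts (log2 fold change -1.35 with an SE of 0.45, and a q of 0.016 in the authors' deposited table). It lies alone in its locus, on chromosome 2 from 34707607 to 34726459 (mm9). After centring all log2 fold changes on the median of all genes it was no longer called (log2 -0.94, q = 0.138). The other chaperones of the ATPase ring, Psmd9 and Psmd10, were at 14.5 and 38.3 FPKM in 2-day myotubes and 13.1 and 25.02 in growing myoblasts, not called. Psmg1, a chaperone of the alpha ring, was at 31.2 FPKM in 2-day myotubes and 55.8 in growing myoblasts (log2 fold change -0.84, SE 0.43) and had the lowest q of any uncalled proteasome gene, 0.150, in the authors' deposited table. Its partner Psmg2 was at 40.1 FPKM in 2-day myotubes and 37.9 in growing myoblasts. Psmg3 was at 35.3 FPKM in 2-day myotubes and 35.8 in growing myoblasts, and Psmg4 at 70.0 in 2-day myotubes and 66.6 in growing myoblasts. Over the 7 chaperones the median was 0.07, or 0.44 relative to all genes. In the plot of log2 fold changes the uncalled entries lay between -0.84 and 0.63.

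**Figure D3:**
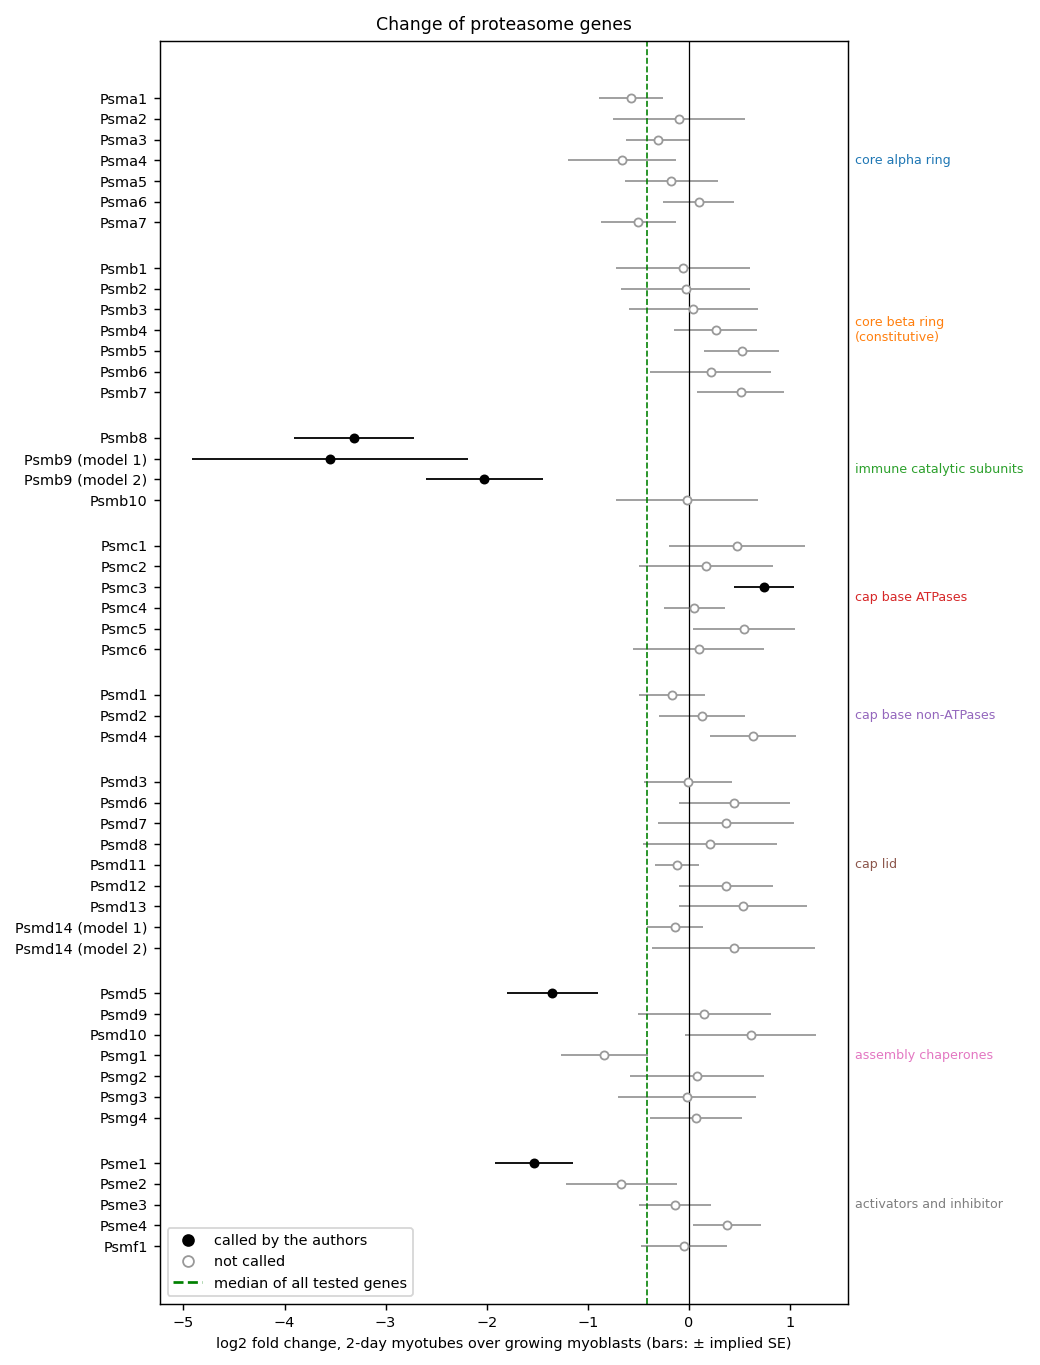
Log2 fold change of each tested proteasome entry, 2-day myotubes over growing myoblasts, with bars of 1 implied SE; filled points were called by the authors and the dashed line is the median of all tested genes, -0.41. Psmb8, both Psmb9 entries, Psme1 and Psmd5 lie left of the dashed line, and Psmc3 right of 0.

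Subunits of one assembly were not at equal RNA levels, and the highest and lowest gene of each of 4 assemblies was the same in both conditions. In the alpha ring Psma7 was highest and Psma2 lowest in both conditions, a ratio of 9.04 in 2-day myotubes and 11.97 in growing myoblasts. Psma2 stood at 49.6 FPKM in 2-day myotubes and 53.0 in growing myoblasts. In the beta ring Psmb4 was highest and Psmb5 lowest in both, with ratios of 4.33 in 2-day myotubes and 5.19 in growing myoblasts. Psmc3 and Psmc6 bounded the ATPases, with ratios of 17.7 in 2-day myotubes and 11.3 in growing myoblasts, and Psmd13 and Psmd6 the lid, with 17.8 in 2-day myotubes and 16.7 in growing myoblasts. The coefficient of variation across the ATPase genes was 92.2% in 2-day myotubes and 75.7% in growing myoblasts, and across the assembly chaperones 44.7% in 2-day myotubes and 85.0% in growing myoblasts, where Psmd5 was the highest gene in growing myoblasts. Over 31 constitutive core and cap symbols, log2(FPKM + 1) in the conditions had a Pearson r of 0.95, a description over genes that share libraries and gene lengths.

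Genes that act on the proteasome but fall outside the symbol rule were counted from lists drawn up by function. Of 9 further components and assembly factors, Usp14, a deubiquitinase that docks on the cap, was called lower, at 39.2 FPKM in 2-day myotubes and 81.2 in growing myoblasts (log2 fold change -1.05 with an SE of 0.40, and a q of 0.0369 in the authors' deposited table). None of the 9 was called higher. Of all tested genes 6.52% were called higher and 17.3% lower. After centring Usp14 was not called. Pomp, the core maturation factor, was at 171 FPKM in 2-day myotubes and 141 in growing myoblasts, and Adrm1, a ubiquitin receptor, at 84.0 in 2-day myotubes and 60.3 in growing myoblasts, not called. Of 8 tested regulators of proteasome transcription, 2 were called higher and 0 lower, beside 6.52% and 17.3% of all tested genes. Nfe2l1, the transcription factor that drives proteasome genes when protease activity is short, rose to 548 FPKM in 2-day myotubes, against 187 in growing myoblasts (log2 fold change 1.55 with an SE of 0.24, and a q of 1.25e-08 in the authors' deposited table). Maff, a small Maf protein of the kind that partners it, rose to 19.0 FPKM in 2-day myotubes, against 7.27 in growing myoblasts (log2 fold change 1.38 with an SE of 0.51, and a q of 0.0329 in the authors' deposited table). Nfe2l2, a relative of Nfe2l1, was at 46.9 FPKM in 2-day myotubes and 62.3 in growing myoblasts, and Ddi2 and Ngly1, which process Nfe2l1 protein, were not called. No MyoD summit lay within 10 kb of Nfe2l1, and 38.9% of all tested genes had one. The ubiquitin gene Ubb was at 1554 FPKM in 2-day myotubes and 927 in growing myoblasts (log2 fold change 0.75, SE 0.40), not called.

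**Figure D4:**
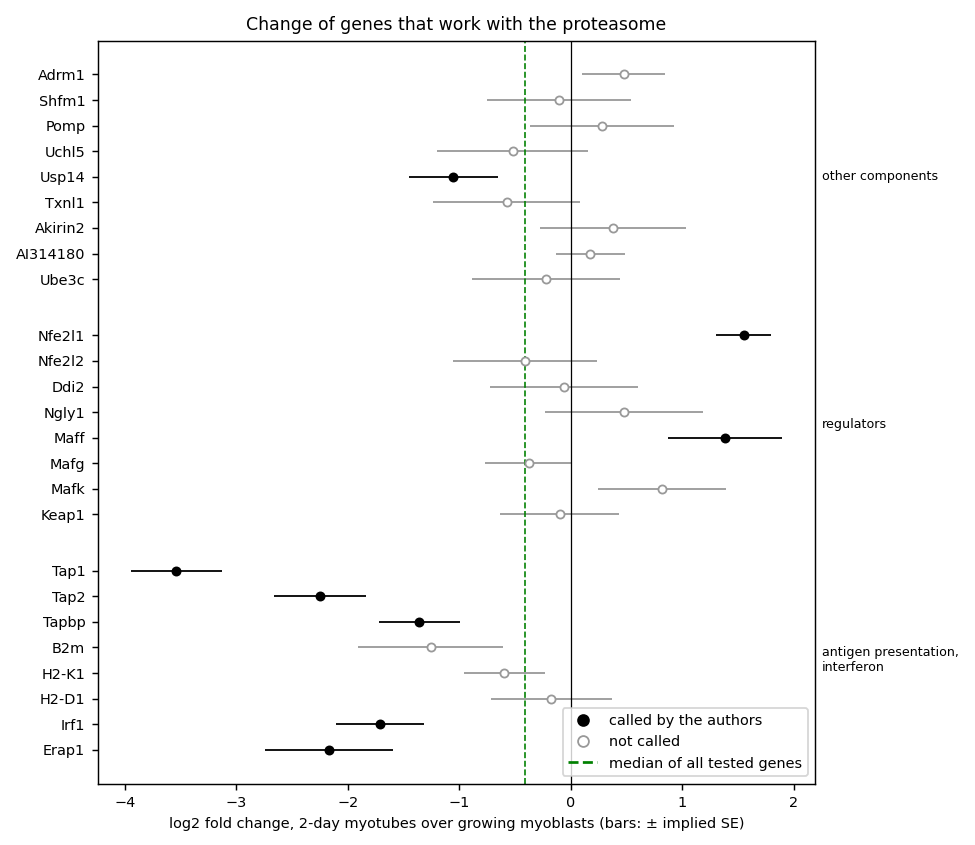
Log2 fold change, 2-day myotubes over growing myoblasts, of the genes reported here that work with the proteasome, in 3 lists, with bars of 1 implied SE; filled points were called by the authors and the dashed line is the median of all tested genes, -0.41. Nfe2l1 and Maff lie to the right, and Tap1, Tap2, Tapbp, Irf1, Erap1 and Usp14 to the left.

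Promoters of constitutive protease subunits are shown for the antioxidant response element, the kind of site through which Nfe2l1 acts. The letters TGACNNNGC, searched on both strands, are in capitals in the 250 bases before the start (RefSeq, GRCm38.p6, 5′ to 3′ on the gene's strand).
Psmb5, chr14:54617996-54618245 (-): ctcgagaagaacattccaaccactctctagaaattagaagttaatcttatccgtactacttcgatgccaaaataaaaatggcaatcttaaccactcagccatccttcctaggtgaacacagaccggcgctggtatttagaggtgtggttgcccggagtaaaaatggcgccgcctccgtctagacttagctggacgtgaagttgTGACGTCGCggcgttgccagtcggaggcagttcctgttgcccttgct
Psmb6, chr11:70525107-70525356 (+): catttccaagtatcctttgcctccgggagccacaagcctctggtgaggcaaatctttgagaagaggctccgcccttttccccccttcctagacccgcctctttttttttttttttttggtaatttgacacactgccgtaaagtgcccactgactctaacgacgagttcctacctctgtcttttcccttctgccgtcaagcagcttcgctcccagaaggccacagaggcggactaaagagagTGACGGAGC
The first base of the match lay at -47 in Psmb5 and at -9 in Psmb6, counted from the start. Of 43 proteasome promoters in the table, for 40 of the 48 symbols, 5 held the letters (11.6%), against 10.2% of all 32851 windows, so the share was near that of all genes. Psmd9, Psmc6 and Psmd12 held the others. Psmb7 and Psmc3 are not among the symbols matched.

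MyoD peaks were joined to each proteasome locus where a summit lay inside it or within 10 kb. Of the 48 tested entries 16 had a summit (33.3%, exact Clopper-Pearson 95% interval 20.4% to 48.4%), against 38.9% of all tested genes. Inside the locus itself 13 entries had one (27.6% of all tested genes), within 5 kb 16 (34.6%) and within 50 kb 32 (60.0%). The interval covers counting error only. The median locus was 14682 bp for proteasome entries and 26380 bp for all tested genes. Of the 33 entries alone in their locus 6 had a summit (18.2%, interval 6.98% to 35.5%), against 32.8% of such genes in all. By class, 4 of 14 constitutive core entries, 5 of 18 cap entries, 4 of 7 assembly chaperones, 2 of 5 activators and inhibitors and 1 of 4 immune entries had a summit. Of the called entries 4 of 6 had one (interval 22.3% to 95.7%), and of those not called 12 of 42 (interval 15.7% to 44.6%), and 3 of those 4 lie in shared loci. The 30 summits near proteasome genes had a median of 14.5 tags (range 7 to 71), against 14 over all 10756 peaks. Of the 30, 4 had a false discovery rate of at most 5% (13.3%), against 19.4% of the list. That cut leaves out the peak with the highest p score (minus 10 times the log10 p) of the 30, near Psmc1. Tags, fold enrichment and false discovery rate are the authors' own values for each peak, from 1 call on 4049890 unique ChIP tags and 4371189 unique control tags.

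The summits that can be placed against a gene start lie at genes alone in their locus whose strand the RefSeq table gives. Within 200 bp of the 5′ end there were 3. At Psmd5, the chaperone that fell, a summit with 36 tags and 7.33-fold enrichment (false discovery rate 11.7%) lay 170 bp before the 5′ end of the locus, in a peak on chromosome 2 from 34726294 to 34727096. At Psmc1 a peak of 10 tags (11.03-fold, false discovery rate 23.2%, chromosome 12 from 101348383 to 101348750) had its summit 50 bp inside the 5′ end, and at Psmb4 a peak of 11 tags (8.57-fold, false discovery rate 23.9%, chromosome 3 from 94690515 to 94690870) had its summit 177 bp inside. Psmc1 also had 3 summits upstream, the farthest of them 9591 bp away with 50 tags and 15.1-fold enrichment (false discovery rate 2.56%). Another, 8343 bp away, had the highest fold enrichment of any near a proteasome gene, 46.0, with 30 tags and a false discovery rate of 20%. Its p score, 397, was also the highest of any near a proteasome gene. That of the farthest one was 176, so p score and false discovery rate ranked these peaks differently. Neither Psmc1 nor Psmb4 was called in the authors' deposited table.

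The promoters of these 3 genes are shown because a MyoD summit lay within 200 bp of the 5′ end of their locus. Each line gives the 250 bases before the start (RefSeq, GRCm38.p6, 5′ to 3′ on the gene's strand) with E-boxes (CANNTG) in capitals.
Psmd5, chr2:34870963-34871212 (-): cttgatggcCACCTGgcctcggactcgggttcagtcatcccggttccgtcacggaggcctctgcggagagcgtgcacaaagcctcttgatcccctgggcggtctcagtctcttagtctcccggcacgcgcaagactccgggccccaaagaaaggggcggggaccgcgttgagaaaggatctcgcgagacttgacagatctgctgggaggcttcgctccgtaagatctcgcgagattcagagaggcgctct
Psmc1, chr12:100109952-100110201 (+): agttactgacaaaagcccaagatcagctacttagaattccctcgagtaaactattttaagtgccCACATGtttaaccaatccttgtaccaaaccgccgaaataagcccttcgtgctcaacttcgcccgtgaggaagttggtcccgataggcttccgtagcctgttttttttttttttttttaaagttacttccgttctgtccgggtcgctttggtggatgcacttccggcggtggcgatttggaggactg
Psmb4, chr3:94886959-94887208 (-): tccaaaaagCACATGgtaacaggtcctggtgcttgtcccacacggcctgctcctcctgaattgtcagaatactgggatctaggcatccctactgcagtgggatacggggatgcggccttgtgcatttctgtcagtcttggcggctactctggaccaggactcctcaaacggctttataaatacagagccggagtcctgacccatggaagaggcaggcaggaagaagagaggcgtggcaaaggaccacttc
Each window held 1 E-box, with its first base at -241 in Psmd5, -186 in Psmc1 and -241 in Psmb4. None was CAGCTG, which 2 of the 43 proteasome windows held (4.65%), Psmd4 and Psmd10, against 13.0% of all windows. E-boxes as a class were in 23 of 43 proteasome windows (53.5%), against 66.2% of all. The peaks are in mm9 coordinates and were not moved to the build of these windows, so whether a summit falls in a window was not tested. Each window holds only bases before the start. By the 5′ ends of the loci, the summit lay on that side at Psmd5 but on the other side at Psmc1 and Psmb4.

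Other summits near called genes cannot be tied to one gene. The Psmc3 locus held 2, with 41 tags (15.3-fold, false discovery rate 2.12%) and 15 tags (13.3-fold, false discovery rate 21.2%), in a locus shared with Slc39a13. The merged locus of Psmb8 and Tap2 held 2, with 38 tags (13.0-fold, false discovery rate 5.01%) and 13 tags (16.2-fold, false discovery rate 11.8%). A summit of 16 tags (15.7-fold, false discovery rate 14.6%) lay 2538 bp before the start of the Psme1 locus, which also holds Fam158a. The Psmb9 locus had none within 10 kb. The most tags near any proteasome entry, 71, were in the Psmd9 locus, which spans 202759 bp and holds 6 tested genes. Psmd7, Psmg2 and Psmg3, alone in their loci, had summits of up to 21, 16 and 45 tags. The Psmd7 peak of 21 tags (11.9-fold, false discovery rate 7.75%) spanned one end of its locus. With no strand given for Psmd7, whether that end is the 5′ end was not tested. Those at Psma3, Psma6, Psmb7, Psmd1, Psmd13 and Psme4 lay in shared loci.

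**Figure D5:**
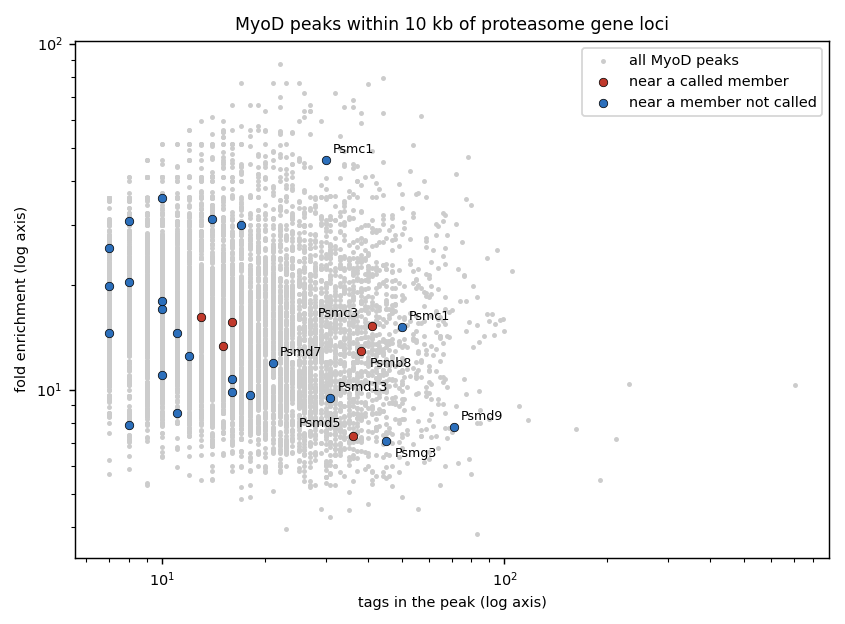
Tags against fold enrichment (both log axes) of all 10756 MyoD peaks of 2-day myotubes (grey) and of the 30 within 10 kb of a proteasome locus, red near a called gene and blue near one not called; the peaks with most tags carry the gene's name. The proteasome peaks run from 7 to 71 tags and lie within the cloud of the list.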

How the data were processed

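Expression values were FPKM deposited by the authors, 1 per gene and condition, in a gene table laid out as Cuffdiff writes it. Per the submitters' processing notes, Cuffdiff, CASAVA 1.7.0, MACS 1.3.7 and the mm9 build were used. The sources used here name no aligner, annotation or normalization setting. Depth in reads is unknown. The table was deposited as 2 identical copies, of which 1 was used.

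The authors' p-values and q-values were used as deposited, and recomputed q-values differed from them by at most 1.67e-06. The deposited log2 fold change was divided by the authors' test statistic to give the implied SE. The labels state sequencing in duplicates, without saying how these were combined, so p-values may reflect technical spread only.

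MyoD peaks were called with MACS at a p-value threshold of 1.00e-05, per the file headers. Each peak carries a count of its tags, per the file headers. Fold enrichment is a ratio, the p score is minus 10 times the log10 p, and the false discovery rate is a percent, all deposited by the authors. The sources used here do not describe the control, and the antibodies the labels list include none named for MyoD.

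Medians used log2((FPKM 2-day + 1)/(FPKM growth + 1)) over tested genes with a mean of at least 1 FPKM. Levels and shares per symbol summed the entries of that symbol. Of the 50 identifiers 47 were found in the name table, and those of both Psmb9 entries and the second Psmd14 entry were not. Every proteasome entry was accounted for; those described first were the called genes, the highest and lowest of each class, the immune subunits with their counterparts, the activators and genes with a summit. Of the further lists, called genes were named, up to 4 by lowest q, and those named beyond these were chosen after their values were seen. The genes and lists were chosen with earlier results of these data known. Loci of the table are merged regions, and 15 of 48 tested entries share theirs with another tested gene. The centring step and the peak join were tested on simulated data. Work was done in Python 3.11.15 with numpy 2.4.6, pandas 2.3.3 and scipy 1.17.1. A few genes of the further lists are not reported here, by name or in the plots, and the antigen presentation and marker counts include them.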

Additional observations from a re-analysis of the deposited data

How the results depend on the processing

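No paired analysis was possible because each condition has 1 value, and no replicate could be left out. Of the 5 lower calls, 3 were kept after centring on the median of all tested genes and 3 at a q of at most 0.01, and 1 is left without entries that share a locus. Centring removed the calls of the minor Psmb9 entry (log2 -3.14, q = 0.0905) and Psmd5. The 1 higher call, Psmc3, was kept after centring (q = 0.00112), while 0 were left at a q of at most 0.01 and 0 without shared loci. Centring turned 13 uncalled log2 fold changes positive: 0.36 for Psmb1, 0.32 for Psma2, 0.40 for Psmd3, 0.29 for Psmd11, 0.25 for Psmd1, 0.27 for the main Psmd14 entry, 0.38 for Psmb2, 0.39 for Psmg3, 0.39 for Psmb10, 0.36 for Psmf1, 0.11 for Psma3, 0.24 for Psma5 and 0.28 for Psme3. The median of the immune entries, -2.05 with a pseudocount of 1, was -2.64 with 0.1 and -2.67 with none. The minor Psmb9 entry alone, an alternative chosen after seeing the data, made up 0.163% of its pair in 2-day myotubes and 2.17% in growing myoblasts. Entries with a MyoD summit numbered 32 within 50 kb, 4 with peaks at a false discovery rate of at most 5% and 6 without shared loci, against 16. The share of all tested genes at that false discovery rate was not computed. Medians were taken as unmoved within 0.49, the median implied SE of these entries, and counts and shares within 1.5 times. By these limits 39 other checks left their result in place, among them shares with 1 FPKM added and summits within 5 kb. Another 20 could not move theirs: no entry lay under the low filter, q-values were recomputed over the same genes, and centring shifts every median by the same amount, less than that limit. Centring turned the sign of 2 of 9 medians, to 0.06 for the alpha ring, against -0.31, and to 0.24 for the activators and inhibitor, against -0.14.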
